A study of Homo sapiens with 6 samples.

Results

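The genes described here are 4 members of the SRC family of tyrosine kinases, SRC, LYN, FYN and YES1, and CSK, the kinase that holds them in check. They were taken by name, and all 5 were found among the 14821 genes of the table. The list was drawn up with earlier results known, so the genes count as selected on their ERG against vector values in these same 6 libraries, and those differences are given as a description and without a test. RNA was measured in F36P, an established human erythroleukaemia cell line. In 3 libraries the cells had been transduced with the retroviral plasmid MSCV-PIG-AM-ERG, which expresses ERG, an ETS family transcription factor. In 3 libraries they carried the plasmid MSCV-PIG (vector), whose genotype label is WT. Both groups had been kept in puromycin at 1 µg/ml for 4 days to select transduced cells, and the submitters asked how ERG blocks erythroid differentiation. The labels give the replicates as biological without naming cultures or transductions, so p-values speak only for the spread among the 6 libraries.

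SRC family kinases sit on the inner face of the cell membrane and pass signals from receptors that have no kinase of their own, such as integrins, immune receptors and cytokine receptors. CSK phosphorylates a tyrosine in the tail of each family kinase, and the kinase then folds into an inactive shape; phosphatases such as CD45 remove that phosphate. LYN is the main family member of many myeloid, mast and erythroid cells, FYN works beside it in mast cells and platelets, SRC is abundant in platelets, and YES1 is found in most tissues.

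The promoter sequences are shown because ERG is an ETS factor, and ETS factors bind DNA around a GGAA core. Promoter windows were on hand for 3 of the 5 genes, FYN, YES1 and CSK, and were taken from RefSeq on GRCh38.p14 as the 250 bases before an annotated start. The search used GGAA and the longer ETS form CCGGAA, each on both strands, and every CCGGAA also counts as a GGAA. Of 35116 promoter windows of that length, 92.7% held at least 1 GGAA, with a median count of 3, and 14.5% held CCGGAA. The YES1 window held 3 GGAA, and 2 of them were part of a CCGGAA. These began 213 and 170 bases before the start, the nearer of them on the opposite strand. Both are printed 5′ to 3′ along the gene with CCGGAA, or its reverse complement, in capitals. Both sites overlap an exon of another YES1 transcript in GENCODE release 29, in which no YES1 transcript begins at this RefSeq start.
YES1 site 213 bases before the start (chr18:812438-812467, minus strand): ggggcgtaggcgCCGGAAggctgggggccc
YES1 site 170 bases before the start (chr18:812395-812424, minus strand): gcgtggcccgagTTCCGGtgagcggacggc
The FYN window at its outermost start held no GGAA on either strand, and that of CSK held 4 and no CCGGAA. They are given whole, with each GGAA or its reverse complement in capitals, to set beside the YES1 sites. FYN has 4 annotated starts in the table, and the windows of the other starts held 1, 1 and 3 GGAA. The FYN window lies before the gene, and that of CSK lies within the span of the CSK gene in GENCODE release 29, just before the start of a CSK transcript. A match of letters is a description and not evidence of binding.
FYN (chr6:111873453-111873702, minus strand): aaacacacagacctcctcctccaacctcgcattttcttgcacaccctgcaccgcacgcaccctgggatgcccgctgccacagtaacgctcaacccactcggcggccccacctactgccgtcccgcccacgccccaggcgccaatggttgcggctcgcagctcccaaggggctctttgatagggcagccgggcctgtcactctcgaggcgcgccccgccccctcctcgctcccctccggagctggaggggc
CSK (chr15:74788294-74788543, plus strand): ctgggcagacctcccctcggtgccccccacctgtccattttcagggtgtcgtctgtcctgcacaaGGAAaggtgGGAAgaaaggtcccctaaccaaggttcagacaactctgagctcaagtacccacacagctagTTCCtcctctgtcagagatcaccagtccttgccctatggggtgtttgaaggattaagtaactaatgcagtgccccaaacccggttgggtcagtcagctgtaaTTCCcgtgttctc

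Totals per library ran from 10257141 to 14803031 counts, and levels are given as CPM, read counts scaled to library size with TMM. ERG stood at 97.4 to 104 CPM in the ERG libraries and 14.6 to 28.1 CPM in the vector libraries, as the labels say. In the edgeR fit described below 1.47% of tested genes passed as higher with ERG and 0.732% as lower. Of 13 erythroid markers 5 passed as lower with ERG, the summed level of the 13 being 3857 to 6828 CPM with ERG and 11390 to 19140 CPM with vector. Of the 8 tested megakaryocyte and platelet markers among 10, 5 passed as higher, with sums of 1329 to 2484 CPM with ERG and 547 to 1176 CPM with vector. Most of each sum was ITGA2B (1717, 1732 and 1039 CPM with ERG, 1083, 486.5 and 715 CPM with vector). Its groups overlapped and it did not pass (edgeR adjusted p = 0.209). Of the 6 tested mast cell, basophil and eosinophil markers among 8, 2 passed as higher (2367 to 2554 CPM with ERG, 1345 to 2254 CPM with vector). Of the 4 tested endothelial and stromal markers among 10, 1 passed as higher, PECAM1, which is also in a receptor list below, while CDH5 and KDR were not among the genes tested. The sums of these 4 were 118 to 167 CPM with ERG and 38.8 to 57.8 CPM with vector. Most of each sum was PECAM1 (mean 145 CPM with ERG and 37.5 CPM with vector, n = 3 each). The sums therefore describe mainly PECAM1 and not a rise of the marker list. None of the 5 tested lymphoid or 2 tested granulocyte and monocyte markers (11 listed of each) passed, and CD3D, CD3E, MS4A1, MPO and CD14 were not among the genes tested. Whether the shift in markers has a part in the levels below was not tested. The libraries also fell into sets that cut across the groups: ERG replicates 1 and 2 with vector replicate 1 (set A), and ERG replicate 3 with vector replicates 2 and 3 (set B). The sets are known only from the data. ERG replicates 1 and 2 were closer to each other (chi-square 2.20 per degree of freedom) than any other pair (21.6 to 86.9). They differed by more than sampling noise and are counted as separate libraries, but the labels do not say whether they came from separate cultures. If they did not, the SDs given for ERG with n = 3 are too small. With their counts summed edgeR called 0 genes in the whole table (1277 had an unadjusted p under 0.05).

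All 5 genes passed the filter on low counts, with at least 26 counts in every library. In the edgeR fit over 14203 tested genes, 2.20% passed an adjusted p of 0.05, and 1 of the 5 genes, SRC, was among them, as higher with ERG (1.47% of tested genes passed as higher and 0.732% as lower). All ERG libraries lay above, or all below, all vector libraries for 21.9% of tested genes, and for 2 of the 5, SRC and YES1. SRC was not among the passing genes without ERG replicate 1, ERG replicate 2, vector replicate 2 or vector replicate 3, with limma-voom, or with the counts of ERG replicates 1 and 2 summed. Since the genes were named with this contrast in view, nothing is read from these counts.

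SRC, the founding member of the family, has its locus on chromosome 20 between 37344685 and 37406050 (plus strand; hg38, GENCODE release 29). It stood at 45.5, 48.2 and 13.7 CPM in ERG replicates 1, 2 and 3, against 5.11, 3.12 and 2.54 CPM in vector replicates 1, 2 and 3. Every ERG library was above every vector library, and ERG replicate 3 was far below the other ERG libraries. The mean was 35.8 ± 19.2 CPM with ERG and 3.59 ± 1.34 CPM with vector (SD, n = 3 each), a fold of 9.93 (log2 difference 3.31, SE 0.52). This was the 37th highest log2 difference of all tested genes. The vector values rest on 58, 41 and 26 counts. Exact Poisson 95% intervals were 17.0 to 38.1 counts for the lowest and 44.0 to 75.0 for the highest, both below the 175 to 232 counts of the lowest ERG library. The counts are not scaled to library totals. These intervals cover counting error only. Within set A the ERG libraries averaged 9.18 times the vector library, and within set B the ERG library was 4.84 times the mean of the vector libraries. Whether the fold differs between the sets was not tested. In bulk RNA, more cells that express a gene and more RNA in each cell cannot be told apart, here or for the genes that follow. The log2 difference was 3.04 to 3.70 on leaving out 1 library, 3.15 with limma-voom and 3.08 with the counts of ERG replicates 1 and 2 summed.

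YES1, a ubiquitous family member (chromosome 18, 721588 to 812546, minus strand), stood at 204, 209 and 144 CPM in ERG replicates 1, 2 and 3, against 132, 129 and 93.6 CPM in vector replicates 1, 2 and 3. The groups did not overlap, though the lowest ERG library was close to the highest vector library. The means were 186 ± 35.9 CPM with ERG and 118 ± 21.5 CPM with vector (SD, n = 3 each), a fold of 1.57 (log2 difference 0.65, SE 0.20). With the library set as a term in the model the difference was 0.51 (SE 0.13). The gene shares 4.55% of the 50-base stretches of its transcripts with transcripts of other genes, of which the pseudogene YES1P1 shares the most, so its counts are slightly uncertain.

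LYN, which phosphorylates the chains of the IgE receptor and acts below the erythropoietin receptor and KIT (chromosome 8, 55879813 to 56014168, plus strand), had the highest level per length of transcript of the 5. It stood at 454, 453 and 461 CPM in ERG replicates 1, 2 and 3, against 400, 455 and 404 CPM in vector replicates 1, 2 and 3. The groups overlapped, because vector replicate 2 was within the range of the ERG libraries. The mean was 456 ± 4.75 CPM with ERG and 420 ± 30.5 CPM with vector (SD, n = 3 each), a log2 difference of 0.12 (SE 0.13). Its whole range over the 6 libraries was 0.20 on the log2 scale.

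FYN, a partner of LYN in mast cells and platelets (chromosome 6, 111660332 to 111873452, minus strand), stood at 93.5, 91.9 and 54.0 CPM in ERG replicates 1, 2 and 3. It was at 96.8, 57.5 and 62.9 CPM in vector replicates 1, 2 and 3. High and low libraries occurred in both groups, and the split followed the library sets. The mean was 79.8 ± 22.4 CPM with ERG and 72.4 ± 21.3 CPM with vector (SD, n = 3 each), a log2 difference of 0.14 (SE 0.27). Within set A the ERG libraries were at 0.96 times the vector library and within set B at 0.90 times the mean of the vector libraries, so the sign turned. With the set as a term the difference was -0.11 (SE 0.09). FYN counts were not split by isoform, and the T-cell type and brain type forms of the protein cannot be told apart in them.

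CSK (chromosome 15, 74782057 to 74803198, plus strand) stood at 187, 187 and 231 CPM in ERG replicates 1, 2 and 3, against 178, 229 and 206 CPM in vector replicates 1, 2 and 3. The groups overlapped almost wholly. The means were 202 ± 25.1 CPM with ERG and 205 ± 25.8 CPM with vector (SD, n = 3 each), a log2 difference of -0.02 (SE 0.16). Within the sets the ERG libraries were at 1.05 times (A) and 1.06 times (B) the vector level.

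**Figure D1:**
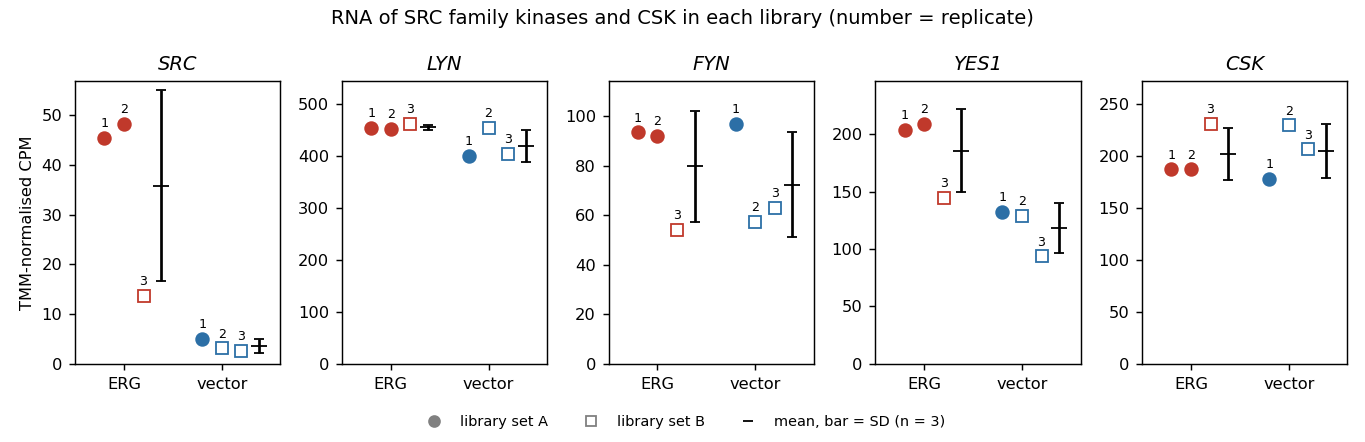
TMM-normalised CPM (vertical axis, from 0) of SRC, LYN, FYN, YES1 and CSK in each ERG (red) and vector (blue) library, with filled circles for library set A, open squares for set B and the replicate number above each point; black marks are the group mean and SD (n = 3). SRC and YES1 separate the groups, as 21.9% of tested genes do, and FYN and CSK separate the sets, as 43.0% do. LYN is within 400 to 461 CPM in all libraries.

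For FYN and CSK the library sets differed more than the groups did. Set A and set B did not overlap for 2 of the 5 genes, FYN and CSK, against 43.0% of all tested genes. FYN averaged 94.1 CPM in set A and 58.1 CPM in set B, a log2 difference of 0.73 (SE 0.09) beside the group term. CSK ran the other way, at 184 CPM in set A and 222 CPM in set B (-0.30, SE 0.09). SRC was higher in set A as well as with ERG: beside a group difference of 2.75 (SE 0.22) it had a set difference of 1.44 (SE 0.22). The set difference of YES1 was 0.38 (SE 0.13) and that of LYN -0.06 (SE 0.09). Since the sets were found in these same libraries, these are descriptions and the SEs may be too small.

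**Figure D2:**
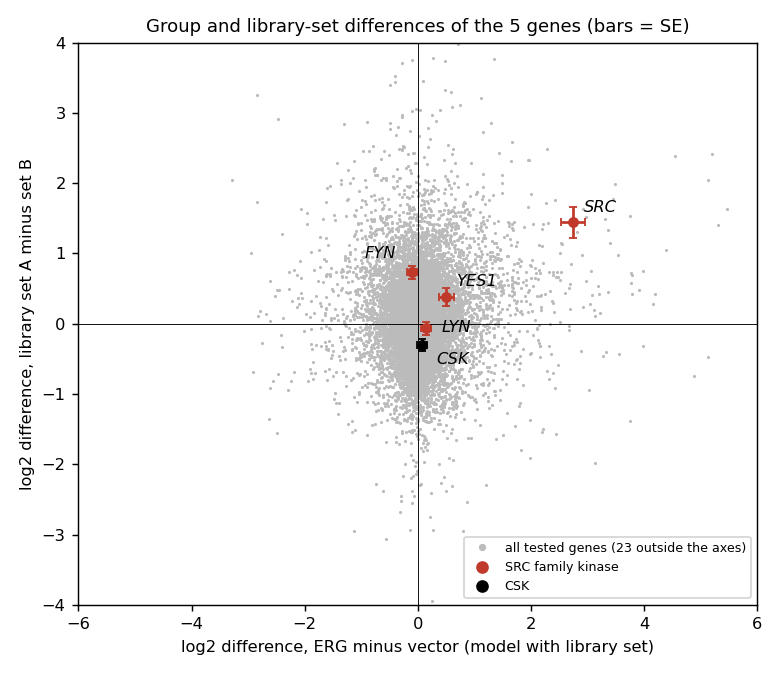
Log2 difference of ERG minus vector (horizontal axis) against log2 difference of library set A minus set B (vertical axis), both from the edgeR model with the 2 terms, for the 4 SRC family kinases (red), CSK (black) and all tested genes (grey, 23 of them outside the axes); bars are SE. SRC lies far to the right and above 0, while FYN lies near 0 for the group and at 0.73 for the set.

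Levels of different genes can be compared only per length, and for this the CPM were divided by kilobases of exon in GENCODE release 29 (4570 bases for CSK to 7411 for FYN). LYN averaged 73.7 ± 0.77 CPM per kilobase in ERG and 67.8 ± 4.94 in vector libraries. CSK came next with 44.1 ± 5.50 in ERG and 44.8 ± 5.63 in vector libraries, then YES1 with 36.4 ± 7.03 in ERG and 23.2 ± 4.21 in vector libraries. FYN had 10.8 ± 3.02 CPM per kilobase in ERG and 9.77 ± 2.88 in vector libraries. SRC was last in both groups, at 5.54 ± 2.97 CPM per kilobase in ERG and 0.56 ± 0.21 in vector libraries (SD, n = 3 for all). In vector libraries each step in this order was larger than the spread. In ERG libraries the intervals of mean ± SD of CSK and YES1 overlapped, and the highest SRC value (7.45, replicate 2) was above the lowest FYN value (7.28, replicate 3). Within each ERG library FYN was above SRC and CSK above YES1, the latter only just in replicate 2 (40.94 against 40.91). The order was the same with coding lengths.

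The summed level of the 4 family kinases was 133, 134 and 112 CPM per kilobase in ERG replicates 1, 2 and 3, against 104, 107 and 92.5 in vector replicates 1, 2 and 3. All ERG libraries were above all vector libraries. LYN made up 58.7 ± 6.67% of the sum in ERG and 67.0 ± 4.53% in vector libraries (SD, n = 3 each). YES1 made up 28.6 ± 2.96% in ERG and 22.8 ± 2.60% in vector libraries, and FYN 8.41 ± 1.67% and 9.64 ± 2.66%. The share of SRC was 5.29%, 5.56% and 1.89% in the ERG libraries and 0.76%, 0.45% and 0.43% in the vector libraries. SRC thus remained a minor part of the family RNA with ERG. The level of CSK divided by the sum was 0.31, 0.31 and 0.45 in ERG replicates 1, 2 and 3, against 0.37, 0.47 and 0.49 in vector replicates 1, 2 and 3. These ratios overlapped between the groups, and within each set the ERG libraries were below the vector libraries. The mean log2 difference of the ratio was -0.34, against a replicate SD of 0.27. These are RNA levels, and kinase protein or activity was not measured.

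**Figure D3:**
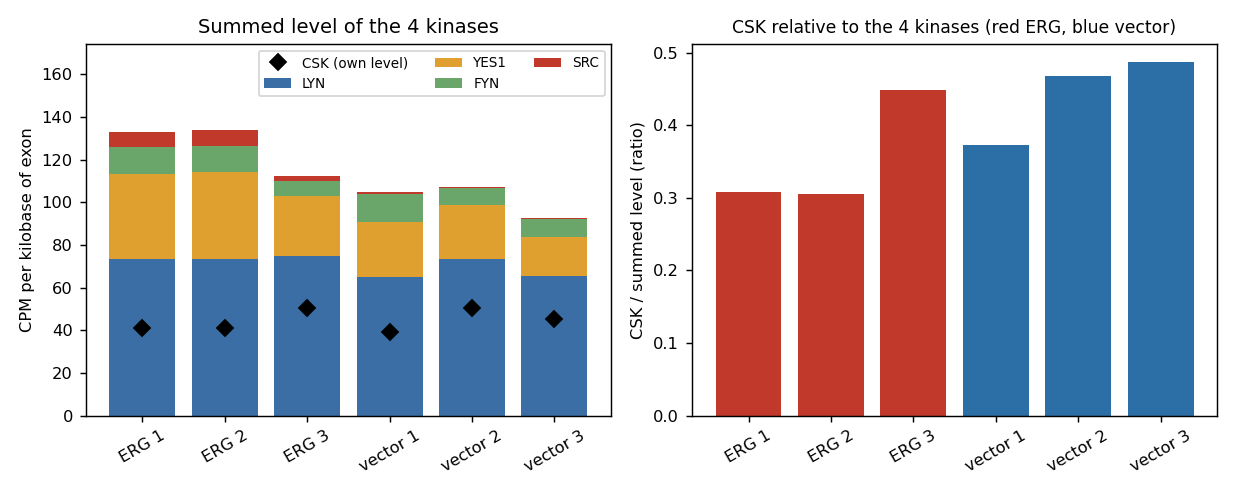
Left, CPM per kilobase of exon (vertical axis) of LYN, YES1, FYN and SRC stacked for each library, with the level of CSK as black diamonds; right, the ratio of CSK to that sum (ERG red, vector blue). The sum is 112 to 134 in ERG and 92.5 to 107 in vector libraries, and LYN is its largest part in every library.

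Of 7 further SRC family and related kinases listed, among them FGR, LCK, BLK and FRK, none was among the tested genes. FGR, a kinase of myeloid cells, was the member with a row below the filter, and is named here after its values were seen. It had 14, 25 and 5 counts in ERG replicates 1, 2 and 3 and 0 counts in each vector library. Against a floor of 3 counts over the vector group the pooled ERG counts (1.04 CPM) gave a ratio of 12.09. This ratio takes the 44 ERG counts as exact, and most of them came from ERG replicates 1 and 2. Fitted without the filter on low counts FGR did not pass (edgeR adjusted p = 0.0967, 14821 genes, of which 2.17% passed).

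Genes that act with these kinases were followed in 5 further lists, which were not chosen for how they moved but were written with earlier results known. Their tests come from the same fit, in which the median log2 difference of all tested genes was -0.01. Leaving out 1 library moved the calls: without ERG replicate 1 or ERG replicate 2 edgeR called 0 genes in the whole table (1278 and 1256 had an unadjusted p under 0.05). With vector replicate 2 or vector replicate 3 left out it called 19 and 51, and with ERG replicates 1 and 2 summed it called 0. Every call below therefore holds for all 6 libraries and not for each subset of 5. With the library set as a term it called 13.2% of tested genes.

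The next list held 17 tested genes that bind or oppose the family kinases (relatives and anchors of CSK, phosphatases, CBL ubiquitin ligases and Src-like adaptors). Among them 1 was higher and 0 were lower, against 1.47% and 0.732% of all tested genes, and the median log2 difference was 0.19. The gene that rose was SLA2, an adaptor that resembles the binding part of SRC without the kinase and dampens receptor signalling. It stood at 53.4, 56.7 and 62.9 CPM with ERG and at 11.2, 19.4 and 18.6 CPM with vector. It had risen in each ERG library, by 3.51-fold on average (log2 1.81, SE 0.22, edgeR adjusted p = 0.0152). It did not pass without ERG replicate 1, ERG replicate 2, vector replicate 2 or vector replicate 3 (edgeR adjusted p = 0.0777, 0.091, 0.0593 and 0.0605). PTPRC, the phosphatase CD45 named above and chosen after its values were seen, ran from 372 to 641 CPM with ERG and from 312 to 568 CPM with vector, without passing (edgeR adjusted p = 0.581). MATK, the relative of CSK, was at 60.2 ± 8.68 CPM with ERG and 44.2 ± 12.3 CPM with vector (SD, n = 3 each; edgeR adjusted p = 0.376), and was likewise named after its values were seen.

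Of 12 tested tyrosine kinases that work beside or below the family, none passed in edgeR, against 2.20% of all tested genes. An unadjusted p under 0.05 was found for 4 of the 12 and for 15.9% of all tested genes. DESeq2 called 3 of the 12, and 7.08% of all tested genes (median log2 difference of the list -0.08). Those with the highest mean CPM were BTK and JAK2. BTK, a kinase that SRC family members switch on, stood at 576, 577 and 416 CPM with ERG and at 368, 198 and 252 CPM with vector. Its groups did not overlap (log2 difference 0.94, SE 0.26, edgeR adjusted p = 0.123), and it passed without vector replicate 1. JAK2, the kinase bound to the erythropoietin receptor, was at 171, 165 and 117 CPM with ERG and at 261, 205 and 170 CPM with vector (log2 difference -0.49, SE 0.21, edgeR adjusted p = 0.321). Its lowest vector library was just below its highest ERG library.

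Of 32 tested adaptors and substrates 1 was higher and 0 were lower, against 1.47% and 0.732% of all tested genes. An unadjusted p under 0.05 was found for 11 of the 32, against 15.9% of all tested genes (median log2 difference 0.18). LAT2, a membrane adaptor that LYN phosphorylates below the IgE receptor in mast cells, stood at 28.8, 26.9 and 11.7 CPM with ERG and at 7.31, 4.26 and 5.58 CPM with vector. Like SRC it was lowest among the ERG libraries in replicate 3. Its rise of 3.93-fold (log2 1.97, SE 0.38) was at the edge of the threshold (edgeR adjusted p = 0.0491). It was not called with DESeq2 size factors (edgeR adjusted p = 0.0511), upper-quartile normalisation (0.0548), the stricter filter (0.0536) or limma-voom (0.102), and of the 6 subsets of 5 libraries only that without ERG replicate 3 called it.

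Of 10 tested receptors that carry inhibitory ITIM motifs, which family kinases phosphorylate, 2 were higher and 0 were lower. Over all tested genes 1.47% passed as higher and 0.732% as lower. The median log2 difference of the list was 0.97. CD300A, an inhibitory receptor of mast cells and other leukocytes, stood at 37.1, 40.2 and 30.2 CPM with ERG and at 13.8, 7.39 and 9.39 CPM with vector. The groups were far apart, and CD300A had risen 3.52-fold (log2 1.81, SE 0.26, edgeR adjusted p = 0.0206). PECAM1, an adhesion receptor of platelets and endothelium, rose 3.87-fold (145 ± 27.2 CPM with ERG, 37.5 ± 11.05 CPM with vector; SD, n = 3 each; edgeR adjusted p = 0.0153). Of the 6 subsets of 5 libraries, 2 called CD300A and PECAM1, those without ERG replicate 3 or vector replicate 1. The highest edgeR adjusted p was 0.119 for CD300A and 0.091 for PECAM1, both without ERG replicate 2.

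Of 21 tested activating receptors and integrins that couple to the family kinases, 6 were higher and 1 was lower. Over all tested genes 1.47% passed as higher and 0.732% as lower. The median log2 difference of the list was 1.01. The receptor that fell was EPOR, and KIT, MS4A2, FCER1G, ITGB3 and CLEC1B were among those that rose. Most of these 7 had been seen to differ in earlier results on these libraries, so the count is no independent evidence. ITGB3, the integrin chain whose tail binds SRC in platelets, had a log2 difference of 3.86 (SE 0.46, edgeR adjusted p = 0.0128). MS4A2, the IgE receptor chain that binds LYN, had one of 5.02 (SE 0.41, edgeR adjusted p = 0.01). CLEC1B, a platelet receptor that signals through family kinases and SYK, rested on 84 counts in ERG and 1 count in vector libraries (edgeR adjusted p = 0.0289). It met the filter on low counts only through the ERG libraries (3.21, 1.92 and 1.02 CPM), so its call is no support. With a filter of 5 CPM in 3 libraries CLEC1B was not tested, and of 17 tested receptors 5 were higher and 1 was lower. ITGB3 passed in 2 of the 6 subsets of 5 libraries, those without ERG replicate 3 or vector replicate 1, and its highest edgeR adjusted p was 0.0743. CLEC1B passed in 1, that without ERG replicate 3 (highest edgeR adjusted p = 0.131). MS4A2 passed in 4, all but those without ERG replicate 1 or ERG replicate 2 (highest edgeR adjusted p = 0.0718).

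**Figure D4:**
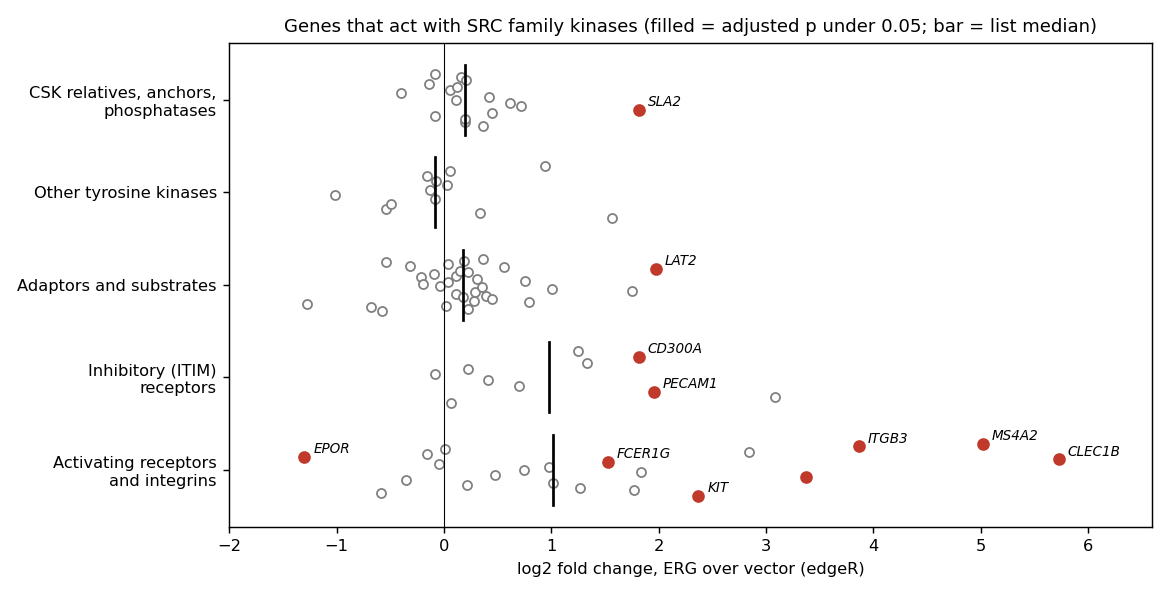
Log2 fold change of ERG over vector (horizontal axis, edgeR) of each tested gene in 5 lists of genes that act with SRC family kinases; filled red points passed an adjusted p of 0.05 and are mostly named, open points did not, and black bars are list medians. The medians lie at -0.08 to 0.19 in the first 3 lists and at 0.97 and 1.01 in the receptor lists.

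Genes whose pattern over the 6 libraries was most like that of each kinase were ranked by Pearson's r of log2 CPM among 10139 other genes with a mean of at least 5 CPM. Group differences and the library sets are shared by many genes, so r is high throughout and is given as a description. For SRC these were PLEK (r = 0.9995), a platelet protein kinase C substrate, TGFBR2 (0.999), a TGF-beta receptor, and GOLGA8Q (0.998), which has near-identical copies. PLEK stood at 69.0, 69.4 and 29.7 CPM with ERG and at 15.1, 11.7 and 9.98 CPM with vector, so it too was lowest among the ERG libraries in replicate 3. For YES1 they included TMC8 and RICTOR (r = 0.997 and 0.996). FYN was followed most closely by LMF1, RNF170 and WARS1 (r = 0.997 for each). WARS1, a tRNA synthetase, showed the set split most plainly, with 1167, 1139 and 249 CPM with ERG and 1316, 335 and 358 CPM with vector. For CSK they included ALKBH5 and TMTC4 (r = 0.996 and 0.990), and for LYN, whose range is small, YAF2, SHOC2 and ZNF518B (r = 0.991, 0.988 and 0.982).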

How the data were processed

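Oligo-dT beads were used to purify mRNA, which was copied with random hexamers, per the labels' protocols. Strandedness, aligner, counting tool and annotation are not given in the sources used here. The submitters' processing notes name hg38 and edgeR 3.32.1. The deposited table holds whole-number read counts (the authors' file is named for CPM), and its totals differ between libraries. The control columns, headed otherwise than the titles, were taken as the vector libraries because the titles name no other group.

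Counts were tested with edgeR 4.0.16 in R 4.3.3 (TMM, quasi-likelihood test, two-sided, Benjamini-Hochberg over all tested genes, threshold 0.05). The filter asked for 1 CPM or more in 3 or more libraries (14203 of 14821 genes). The SE is the log2 fold change divided by the root of F. Scripts were tested on simulated data. Alternatives were DESeq2 1.42.0, limma 3.58.1 (voom), other scalings and filters, added model terms and left-out libraries. Comparisons of ERG with vector inside a library set used log2 CPM or CPM ratios. Differences between the sets, with their SE, came from the edgeR model with group and set terms.

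The 5 genes and all lists were chosen with earlier results of these data known. From each list up to 4 called genes with the largest change are named, or the 2 most abundant where none passed, and 3 genes most like each kinase. Some genes that this rule takes are not reported here. Exon lengths and coordinates come from GENCODE release 29. None of the 8 annotated genes that overlap LYN, YES1 or CSK has a row of its own. LYN shares 0.421% of its 50-base stretches with other genes, and SRC, FYN and CSK share 0.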

Additional observations from a re-analysis of the deposited data

How the results depend on the processing

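The log2 differences of the 5 genes moved by less than 1 replicate SD under every alternative run. That SD includes the spread between the library sets, so it is a wide measure for SRC (0.80) and FYN (0.43). With the set term SRC was at 2.75 and FYN turned to -0.11. On leaving out 1 library the differences ranged from 3.04 to 3.70 for SRC, 0.51 to 0.80 for YES1, 0.09 to 0.18 for LYN, -0.00 to 0.41 for FYN and -0.12 to 0.07 for CSK. The order of levels per kilobase kept all 5 places in every alternative, and the log2 ratio of CSK to the family ranged from -0.52 to -0.24. Counts of calls moved more. The 313 genes called in all became 1006 with DESeq2, 1869 with the library set term, 905 with the replicate block and 0 with ERG replicates 1 and 2 summed (1277 at an unadjusted p under 0.05), and ranged from 0 to 441 on leaving out 1 library. Of the 5 genes, 1 was called, 2 with the set term or the replicate block (SRC and YES1), 0 with limma-voom or with ERG replicates 1 and 2 summed, and 0 to 1 on leaving out a library. Genes that bind or oppose the kinases gave 1 call, 2 with the replicate block, 4 with the set term, 0 with the replicates summed and 0 to 1 without a library. Other tyrosine kinases gave 0, with 3 by DESeq2, 3 with the replicate block, 5 with the set term and 0 to 1 without a library. Adaptors gave 1, with 0 by DESeq2 size factors, upper-quartile scaling, the filter of 5 CPM, limma-voom and the summed replicates, 6 by DESeq2, 5 with the replicate block, 9 with the set term and 0 to 4 without a library. ITIM receptors gave 2, with 5 by DESeq2, the replicate block or the set term, 0 with the replicates summed and 0 to 3 without a library. Activating receptors gave 7, with 11 with the replicate block, 15 with the set term, 0 with the replicates summed and 0 to 8 without a library. The cause of these changes was not tested. The labels do not say whether the replicate numbers pair the samples. Deviations of same-numbered libraries from their group means correlated at 0.63, -0.28 and 0.59, and ERG replicate 2 was closest to vector replicate 1 (0.59). The library sets enter these correlations, so they cannot decide whether samples were paired by number. SRC has 26 to 58 counts per vector library, which limits its precision.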
